A study of Homo sapiens with 3 samples.

Results

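The genes described here are 9 named p53-responsive and death receptor genes, MDM2, FDXR, ZMAT3, TP53I3, RRM2B, XPC, PHLDA3, FAS and TNFRSF10B. They were found by Entrez gene identifier among the 25702 genes listed in each count file, and 8 of them were among the 12879 genes that reached 10 counts in 1 library or more, which were the genes tested. They were measured in Molm13, an established human line of acute myeloid leukemia in which the receptor tyrosine kinase FLT3 has an internal tandem duplication. Cells in RPMI medium with 10% FBS were exposed for 6 h to DMSO, which is the vehicle, to 50 nM pyrvinium or to 100 nM pyrvinium. Strand-specific RNA libraries were then sequenced. Each condition had 1 library, with 23165771 counts in genes for DMSO, 22677038 for 50 nM and 24075123 for 100 nM. No difference below therefore has a replicate check. The comparisons are of libraries, not of conditions, and both doses were compared with the same DMSO library.

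The transcription factor p53 is held at a low level in resting cells by MDM2, an E3 ubiquitin ligase that is itself a p53 target. When p53 is stabilized, as after DNA damage, it binds paired copies of a short element, the p53 half-site, and induces genes for cell cycle arrest, DNA repair, metabolism and cell death. Among these are the genes of cell surface death receptors, FAS and TNFRSF10B, which on binding their ligands FASLG and TNFSF10 (TRAIL) recruit FADD and caspase-8. TNFRSF10B is also a known target of CHOP, the stress transcription factor encoded by DDIT3.

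The libraries carried myeloid transcripts. Of 10 myeloid markers, 9 had at least 10 counts in at least 1 library, and their summed counts were 30108 in DMSO, 30963 at 50 nM and 34534 at 100 nM. LYZ was the most abundant in DMSO with 7607 counts. FLT3 had 6304 counts in DMSO, 9012 at 50 nM and 11181 at 100 nM, and without it the other 9 markers summed to 23804, 21951 and 23353. ANPEP, the gene of CD13, had 0, 2 and 0 counts. The 3 T cell markers summed to 26, 19 and 14 counts, with CD3D the most abundant and CD3E at 0. The 3 erythroid markers summed to 0, 16 and 1, where HBB accounted for the 16 and ALAS2 was at 0. The 4 epithelial and stromal markers summed to 1, 7 and 10, with COL1A1 the most abundant and EPCAM and KRT19 at 0.

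None of the 8 tested genes passed the 2-fold threshold in any comparison. At 100 nM against DMSO, 0 of 8 were called, where 2.20% of all tested genes were. A call required an adjusted p of at most 0.05 in an exact binomial test of the counts and a fold change of at least 2. All 8 had higher values at 100 nM than in DMSO, from 0.06 for RRM2B to 0.41 for PHLDA3 on the log2 scale, which is 1.04-fold to 1.33-fold. In a bulk library, more cells expressing a gene and more RNA per cell cannot be told apart.

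Levels were compared between genes as TPM, which divide the counts of a gene by its exon length and scale every library to the same sum. In DMSO the order was TNFRSF10B at 67.5 TPM, RRM2B at 60.3, MDM2 at 25.7, FDXR at 20.7, XPC at 18.8, PHLDA3 at 17.3, FAS at 4.83 and ZMAT3 at 4.52, with TP53I3 at 0. The median of all tested genes was 17.8 TPM in the same library. The 95% Poisson intervals of neighbours overlapped for FDXR and XPC, for XPC and PHLDA3, and for FAS and ZMAT3, so these pairs could not be ordered at this depth, whereas TNFRSF10B lay above RRM2B (65.2 to 69.8 TPM against 58.4 to 62.3). At 50 nM the levels in the same order of genes were 68.9, 59.0, 28.3, 23.7, 18.6, 16.8, 5.52 and 4.96 TPM, and the intervals of FDXR and XPC no longer overlapped. At 100 nM they were 75.4, 64.1, 31.2, 23.2, 21.3, 23.4, 5.79 and 5.90 TPM. PHLDA3 and ZMAT3 thus stood higher in the order of point values, although their intervals overlapped those of FDXR and FAS. All intervals given here cover counting error only.

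**Figure D1:**
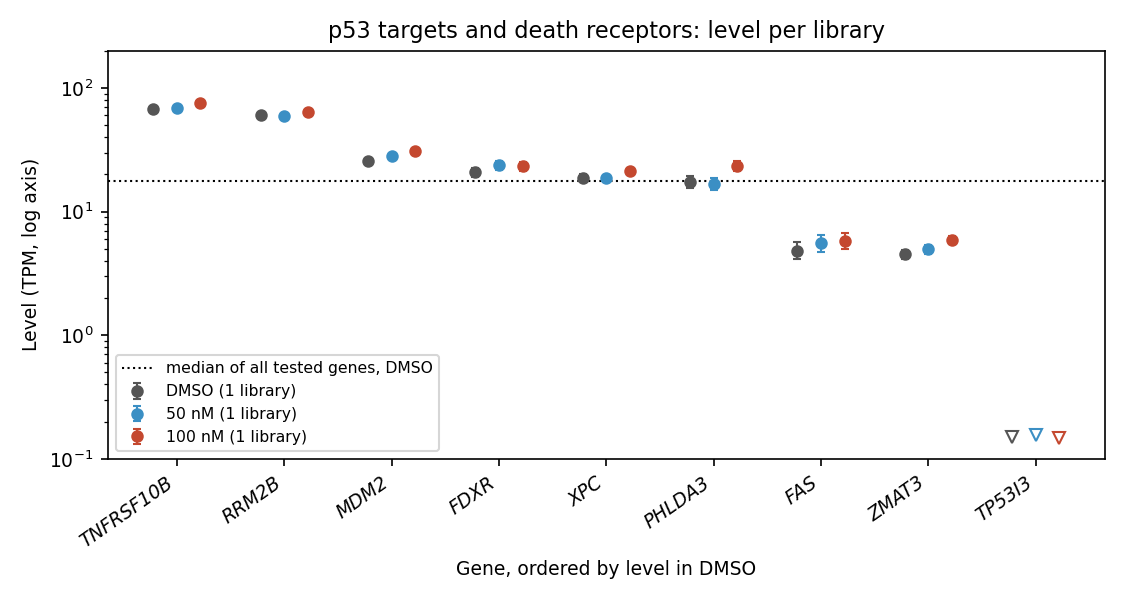
Level of each gene in TPM (log axis) in the DMSO, 50 nM and 100 nM libraries, 1 library each, with 95% Poisson intervals for counting error. The 3 points of each gene lie close together, from TNFRSF10B at 67.5 TPM in DMSO to ZMAT3 at 4.52, and open triangles mark the limit of 3 counts for TP53I3, which had 0 counts in every library. The dotted line is the median of all tested genes in DMSO, 17.8 TPM.

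MDM2 (Entrez 4193, chr12:69201971-69239212 in hg19, plus strand) is the ligase that closes the p53 feedback loop. Its counts were 2259 in DMSO, 2418 at 50 nM and 2800 at 100 nM. The 100 nM library was therefore the highest and DMSO the lowest. The difference from DMSO was 0.25 on the log2 scale at 100 nM (95% Clopper-Pearson interval 0.17 to 0.33) and 0.13 at 50 nM (0.05 to 0.22), and the value at 100 nM was above that at 50 nM by 0.12 (0.04 to 0.20). MDM2 was the only 1 of the 8 whose interval lay above 0 in all 3 comparisons, at sizes well below 2-fold.

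PHLDA3 (Entrez 23612, chr1:201434622-201438299 in hg19, minus strand) encodes a pleckstrin homology domain protein that restrains AKT. It had 313 counts in DMSO, 295 at 50 nM and 433 at 100 nM. The DMSO and 50 nM libraries could not be told apart at this depth, and the 100 nM library stood above both. The log2 difference from DMSO was 0.41 at 100 nM (0.20 to 0.63) and -0.05 at 50 nM (-0.29 to 0.18). Between the doses it was 0.46 (0.25 to 0.68), larger than in 94.8% of tested genes. This was the largest difference of any of the 8 genes in any comparison, and its interval still lay below 2-fold, at 1.60-fold at most.

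ZMAT3 (Entrez 64393, chr3:178735011-178789656 in hg19, minus strand) encodes a zinc finger protein that binds RNA. Its counts were 491 in DMSO, 524 at 50 nM and 656 at 100 nM. The 100 nM library was the highest, and DMSO and 50 nM could not be told apart at this depth. Against DMSO the log2 difference was 0.36 at 100 nM (0.19 to 0.53) and 0.13 at 50 nM (-0.05 to 0.31), and between the doses 0.23 (0.06 to 0.40).

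RRM2B (Entrez 50484, chr8:103216729-103251346 in hg19, minus strand), the p53-inducible small subunit of ribonucleotide reductase, had 3743 counts in DMSO, 3555 at 50 nM and 4066 at 100 nM. Although it was among the most deeply counted of the 9 genes, its interval spanned 0 at both doses against DMSO, with a log2 difference of 0.06 at 100 nM and -0.04 at 50 nM (-0.11 to 0.03). Only between the doses did the interval exclude 0, at 0.10 (0.04 to 0.17).

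XPC (Entrez 7508, chr3:14186647-14220172 in hg19, minus strand), the damage sensor of nucleotide excision repair, had 836 counts in DMSO, 802 at 50 nM and 968 at 100 nM. The 100 nM library was again the highest and the other pair did not separate. The log2 difference from DMSO was 0.15 at 100 nM (0.02 to 0.29) and -0.03 at 50 nM (-0.17 to 0.12), and between the doses 0.18 (0.04 to 0.32).

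FDXR (Entrez 2232, chr17:72858619-72869156 in hg19, minus strand) encodes ferredoxin reductase, a mitochondrial electron transfer enzyme. It had 470 counts in DMSO, 521 at 50 nM and 539 at 100 nM. The log2 difference from DMSO was 0.18 at 50 nM and 0.14 at 100 nM (-0.04 to 0.32). The interval at 50 nM ended just above 0 with the scaling used and spanned 0 with DESeq2 size factors or total counts, so FDXR was not separated from DMSO by a margin that the choice of scaling left intact.

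TP53I3 (Entrez 9540, chr2:24300305-24307728 in hg19, minus strand) encodes a quinone oxidoreductase. It had 0 counts in each of the 3 libraries. The limit that a count of 0 allows was set at 3 counts, which is 0.150 TPM in DMSO, 0.155 at 50 nM and 0.147 at 100 nM. The 95% Poisson intervals used for the other genes end higher for TP53I3, at 0.185, 0.190 and 0.181 TPM. No fold change was computed. Its 1675 bases of exons share none with another gene in the count files.

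TNFRSF10B (Entrez 8795, chr8:22877646-22926700 in hg19, minus strand) is the TRAIL receptor DR5. Its counts were 3345 in DMSO, 3315 at 50 nM and 3821 at 100 nM. The 50 nM library could not be told apart from DMSO at this depth, and the 100 nM library was higher. The log2 difference from DMSO was 0.13 at 100 nM (0.07 to 0.20) and 0.02 at 50 nM (-0.05 to 0.09), and between the doses 0.11 (0.05 to 0.18). Of its exon bases, 65 (1.56%) are shared with RHOBTB2 on the opposite strand, and whether counting used the strand is not given in the sources used here. Reads of the related receptors TNFRSF10A, TNFRSF10C and TNFRSF10D could also be split between genes, which leaves its count uncertain to that extent. In the same libraries DDIT3 rose at 100 nM, by 1.02 on the log2 scale (0.80 to 1.26). Its counts in dose order were 236, 319 and 500, and those of ATF4, which was higher by 0.49 at 100 nM, were 12788, 16646 and 18669.

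FAS (Entrez 355, chr10:90750288-90775542 in hg19, plus strand) is the receptor for FASLG. It was the most thinly counted of the detected genes, with 155 counts in DMSO, 172 at 50 nM and 190 at 100 nM. The counts followed the dose, yet the log2 difference from DMSO was 0.24 at 100 nM (-0.08 to 0.55) and 0.18 at 50 nM (-0.14 to 0.51), so no difference was detectable at this depth. Exons of ACTA2 and FAS-AS1 lie within its span but share no bases with its exons.

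The set of RefSeq start regions used, on GRCh38.p14, held 13 windows for 6 of the 9 genes (MDM2, FDXR, ZMAT3, TP53I3, XPC and FAS). It held none for RRM2B, PHLDA3 and TNFRSF10B, so these were not searched. Each window ran from 250 bases before to 50 bases after an annotated start. Some genes had several, and those of MDM2 and of FAS overlap in part. The windows were searched on both strands for the p53 half-site without mismatch and for TGATGNAA. The latter is the core of the composite element bound by ATF4 and CHOP. The half-site was in 2 of the 13 windows, 1 of FDXR and 1 of FAS, against 6.63% of 35116 windows of all genes. The stretches around these matches are shown because they are the only half-sites found, with the matched letters in capitals, each written 5′ to 3′ on the strand of its gene. That of FDXR is chr17:74872971-74873030 on the minus strand and that of FAS chr10:88991284-88991343 on the plus strand, both in GRCh38.p14.
FDXR: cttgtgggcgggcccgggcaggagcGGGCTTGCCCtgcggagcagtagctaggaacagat
FAS: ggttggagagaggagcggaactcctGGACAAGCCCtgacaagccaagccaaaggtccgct
The first base of the match lay at position -11 in FDXR and at -122 in FAS, from the annotated start that defined its window. FDXR and FAS have other windows, at other starts, and these held no half-site. TGATGNAA was in 0 of the 13 windows (3.62% of all windows), and a pair of half-sites separated by at most 13 bases was in 0 (0.0285% of all). Neither FDXR nor FAS had a log2 difference whose interval excluded 0 at 100 nM. At 50 nM the interval of FAS spanned 0. That of FDXR lay just above 0 with the scaling used, but not with DESeq2 size factors or total counts. The search allowed no mismatch, so a window without a match, those of MDM2 included, can still hold a site that differs by a letter. The letters describe these windows only, and whether the sites act in these cells was not tested.

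At 100 nM against DMSO, the interval lay above 0 for 5 of 8 (MDM2, PHLDA3, ZMAT3, XPC and TNFRSF10B), where it did for 24.0% of all tested genes. XPC was not among them with a 99% interval, which left 4. The 95% interval lay below 0 for 0 of 8, where it did for 25.3%. The median log2 difference of the 8 was 0.20, beside -0.0023 over all tested genes. At 50 nM, 0 of 8 were called (0.955% of all tested genes), the interval was above 0 for 2 of 8, MDM2 and FDXR (18.6% of all), and below 0 for 0 of 8 (18.5%). The median was then 0.07, and all tested genes had 0.00071.

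Between the doses, 0 of 8 were called (0.497% of all tested genes). The interval lay above 0 for 6 of 8, every one but FDXR and FAS, against 12.5% of all tested genes, and below 0 for 0 of 8, against 14.3%. This comparison shares the 100 nM library with that against DMSO. After scaling, the 100 nM library was the highest of the 3 for 7 of the 8 genes, against 37.7% of all tested genes, and the 50 nM library lay between the others for 4 of 8, against 56.4% of all tested genes. The exceptions to a stepwise order were RRM2B, XPC and PHLDA3, which were lowest at 50 nM (21.8% of all tested genes were), and FDXR, which was highest there.

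**Figure D2:**
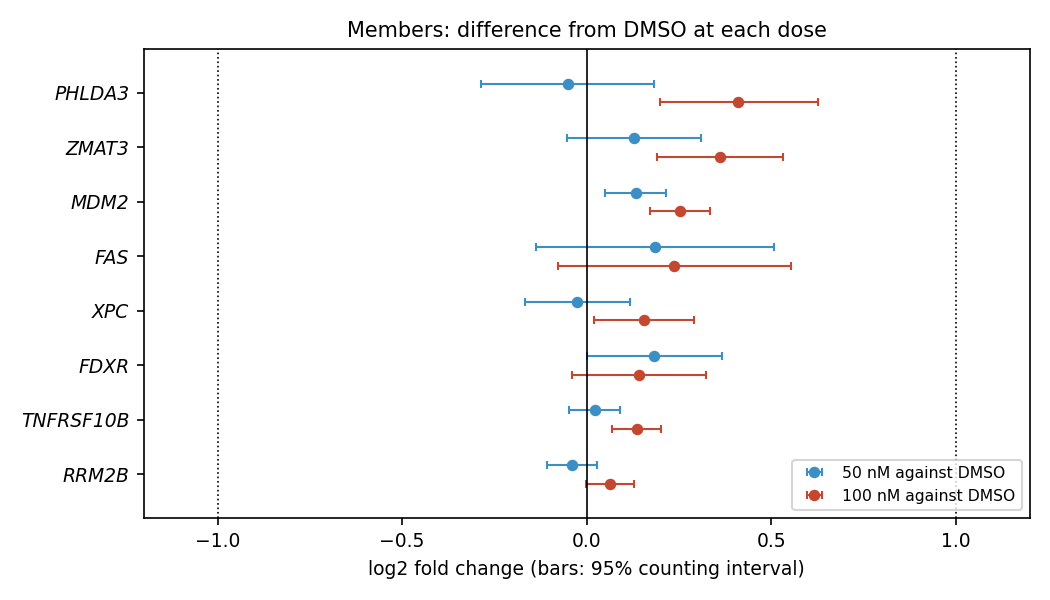
Log2 difference from DMSO for the 8 tested genes at 50 nM and 100 nM, 1 library per condition, with 95% Clopper-Pearson intervals for counting error. At 100 nM all 8 points lie above 0 and 5 intervals exclude 0, at 50 nM 2 intervals do, and none reaches the dotted lines at 2-fold.

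The assumption of counting error alone is a limit of these calls. edgeR's exact test was also given a biological coefficient of variation of 0.1, 0.2 or 0.4, values that are assumed and not measured. With these, 0 of 8 genes reached the adjusted threshold in any comparison. Over all tested genes, those that reached it with at least a 2-fold change numbered 137, 12 and 0 at 100 nM. At 50 nM they numbered 27, 0 and 0, and between the doses 15, 4 and 0. Few genes of any kind were thus called, so 0 of 8 is not particular to these genes. At an unadjusted p of at most 0.05 the number among the 8 was 0 at both doses against DMSO. Between the doses it was 1, PHLDA3, at 0.1 and 0 at the other 2 values.

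The genes upstream were examined as a list of 14 genes for p53 and its regulators, of which 13 were tested. None was called at either dose, where 2.20% of all tested genes were at 100 nM and 0.955% at 50 nM. At 100 nM the interval lay above 0 for 7 (53.8%, against 24.0% of all tested genes) and below 0 for 2 (15.4%, against 25.3%). The median log2 difference was 0.11. MDM4, the MDM2-related inhibitor of p53, had 993 counts in DMSO, 1166 at 50 nM and 1402 at 100 nM, and a log2 difference of 0.44 at 100 nM (0.32 to 0.56). It was thus higher in each pyrvinium library than in DMSO, by less than 2-fold. CREBBP, an acetyltransferase for p53, was at 0.32, and the lowest values were those of RCHY1, a p53 ubiquitin ligase, at -0.28, and of the checkpoint kinase gene CHEK2 at -0.13, whose interval spanned 0.

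Of 40 other p53 targets, 33 were tested, and at 100 nM 2 were called higher and 0 lower. This was 6.06%, where 2.20% of all tested genes were called. The interval was above 0 for 14 (42.4%, against 24.0% of all tested genes) and below 0 for 9 (27.3%, against 25.3%). The median log2 difference was 0.09. At 50 nM the same 2 genes, SESN2 and AIFM2, were called (6.06%, against 0.955% of all tested genes). At that dose 11 intervals lay above 0 (33.3%, against 18.6%) and 6 below (18.2%, against 18.5%), and the median was 0.07. At 100 nM the 31 genes not called ranged from -0.60 to 0.60. Several of these genes, SESN2, BBC3 and PMAIP1 among them, are also known ATF4 or CHOP targets and are named in the publication from these samples, so their values are not independent evidence.

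Among targets for arrest, repair and feedback, 22 of 25 were tested. At 100 nM 1 was called, which is 4.55%, against 2.20% of all tested genes. SESN2, a stress-induced regulator of mTORC1, rose at both doses, from 600 counts in DMSO to 1300 and then 2032. Its log2 fold change was 1.15 for the lower dose and 1.70 for the higher (1.57 to 1.84). CDKN1A, the gene of the cell cycle inhibitor p21, had 1809, 2085 and 2557 counts, a log2 difference of 0.24 at 50 nM and 0.44 at 100 nM (0.35 to 0.53). At 100 nM the CDKN1A difference was thus close in size to those of PHLDA3 (0.41) and ZMAT3 (0.36), while at 50 nM these were -0.05 and 0.13. SERTAD1, a CDK4-binding protein gene, was at 0.46 at 100 nM. PCNA, the sliding clamp of DNA replication, had 13920, 11783 and 11158 counts and was at -0.38 (-0.41 to -0.34), and ABHD4 was at -0.37 with an interval that spanned 0. GDF15, a secreted p53 and stress target, had 0, 0 and 1 counts, too few for a comparison.

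Among cell death targets, 11 of 15 were tested. At 100 nM the interval was above 0 for 4 (36.4%, against 24.0% of all tested genes) and below 0 for 4 (36.4%, against 25.3%). AIFM2, the gene of the ferroptosis suppressor FSP1, was called at both doses on low counts, 12 in DMSO, 31 at 50 nM and 32 at 100 nM, higher by 1.32 on the log2 scale at the higher dose with a wide interval (0.36 to 2.45) and by 1.37 at the lower. BBC3 and PMAIP1 encode the BH3-only proteins PUMA and NOXA. BBC3 had 413, 510 and 653 counts, a log2 difference of 0.60 at 100 nM (0.42 to 0.79), and PMAIP1 had 663, 819 and 931, a difference of 0.43 (0.29 to 0.58). BAX, the effector of mitochondrial permeabilization, had 2701, 2690 and 2621 counts and was at -0.10 (-0.18 to -0.02). The lowest were the autophagy regulator DRAM1 at -0.60 (-0.91 to -0.29) and the apoptosome gene APAF1 at -0.36. BBC3 and PMAIP1 thus lay above DMSO, and BAX, APAF1 and DRAM1 below it. Under an assumed coefficient of variation of 0.1, SESN2 kept an adjusted p of at most 0.05 at both doses and AIFM2 did not, and at 0.2 neither did.

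**Figure D3:**
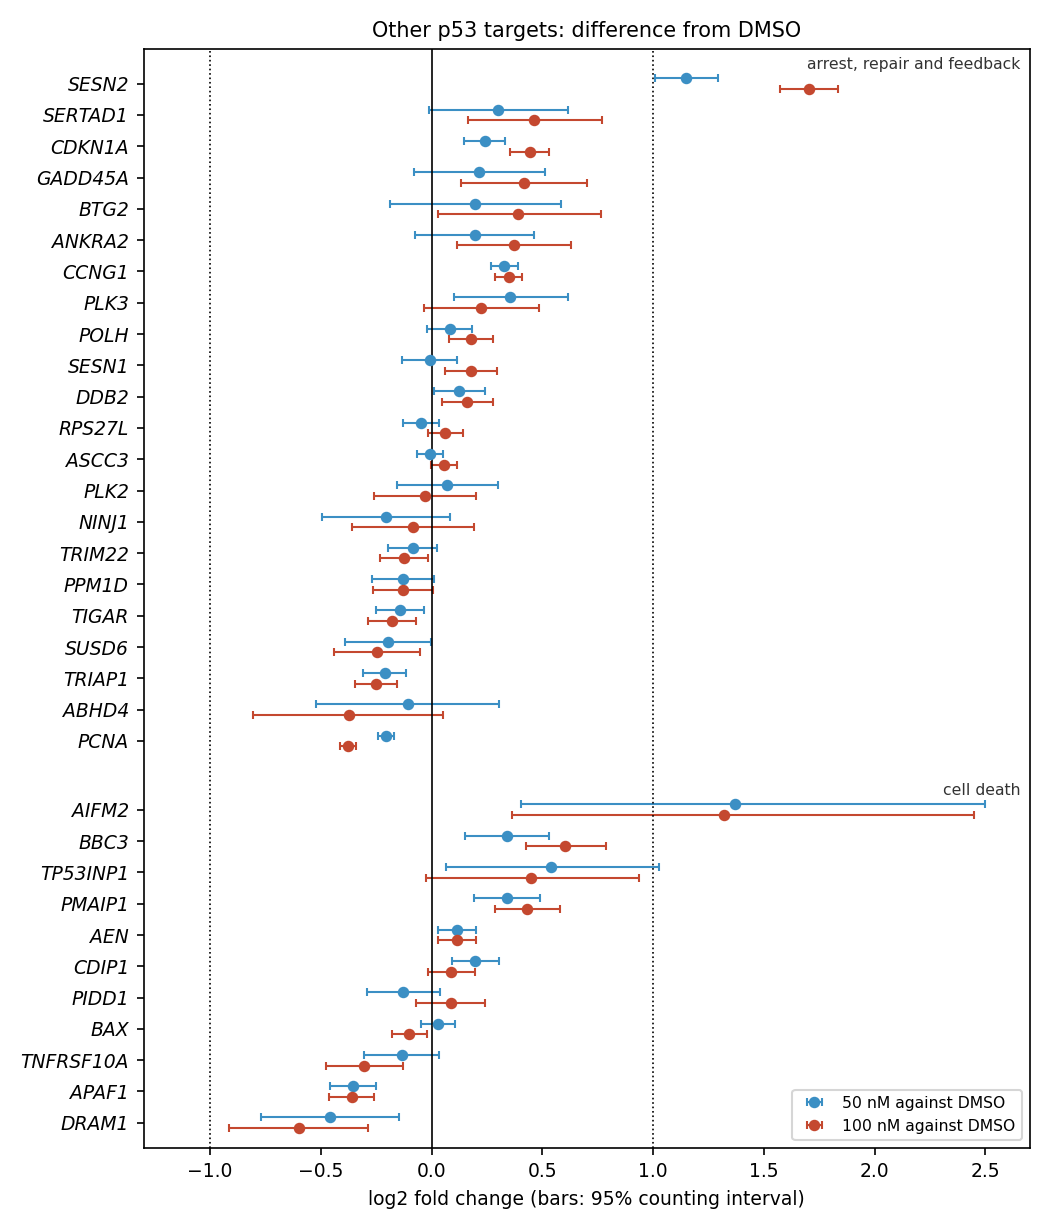
Log2 difference from DMSO at 50 nM and 100 nM for the 33 other p53 targets tested, in 2 groups by role, 1 library per condition, with 95% Clopper-Pearson intervals for counting error. SESN2 and AIFM2 lie beyond the dotted line at 2-fold at both doses, and the 31 others lie between -0.60 and 0.60 at 100 nM, with PCNA, APAF1 and DRAM1 on the lower side.

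On the death receptor side, 4 of 7 other receptors and decoys were tested and none was called. Of all tested genes, 2.20% were called at 100 nM and 0.955% at 50 nM. TNFRSF10A, the other signalling TRAIL receptor, had 605 counts in DMSO, 538 at 50 nM and 510 at 100 nM, a log2 difference of -0.30 at 100 nM (-0.48 to -0.13). TNFRSF10D, a decoy receptor for TRAIL, had 1335, 1459 and 1670 counts and a difference of 0.27 (0.16 to 0.37). The 2 signalling TRAIL receptors therefore differed from DMSO in opposite directions at 100 nM, TNFRSF10B at 0.13 and TNFRSF10A at -0.30. TNFRSF1A, the main TNF receptor, was at 0.05 and TNFRSF21 at 0.10.

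Of 4 death ligands, 2 were tested, and both had intervals below 0 at 100 nM, where 25.3% of all tested genes did. TNFSF10 (TRAIL) had 166, 143 and 115 counts, a log2 difference of -0.58 (-0.94 to -0.23), and TNF had 677, 532 and 603 counts, a difference of -0.22. FASLG had 0, 0 and 2 counts. No ligand gene was called at either dose, where 2.20% of all tested genes were at 100 nM and 0.955% at 50 nM. The ligand of FAS was not measurable at this depth.

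Of 18 genes for signalling below the receptors, 17 were tested and 0 were called at 100 nM (2.20% of all tested genes). The interval lay above 0 for 2 (11.8%, against 24.0% of all tested genes) and below 0 for 7 (41.2%, against 25.3%). The median log2 difference was -0.09. CASP8, the initiator caspase recruited through FADD, had 653, 558 and 552 counts and was at -0.30 (-0.47 to -0.13), and its regulator CFLAR had 431, 427 and 420 counts and was at -0.09 with an interval that spanned 0. The effector caspase gene CASP6 was lowest, at -0.63 (-0.94 to -0.32). The inhibitor of apoptosis genes BIRC2 and XIAP were highest, at 0.51 (0.37 to 0.65) and 0.17. TNFRSF10A is on 2 of the 6 pathway lists, those of cell death targets and of other receptors, and was counted once over all lists. Of the 68 tested genes, 24 had an interval above 0 (35.3%) and 20 below 0 (29.4%) at 100 nM. The shares of all tested genes were 24.0% and 25.3%. The median of the lists was 0.05, where the 8 genes had 5 and 0 and a median of 0.20. At 50 nM the lists had 20 above and 13 below (29.4% and 19.1%, against 18.6% and 18.5% of all tested genes), with a median of 0.04. Between the doses they had 14 and 8 (20.6% and 11.8%, against 12.5% and 14.3%), with a median of -0.01. No list gene was called there, where 0.497% of all tested genes were.

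**Figure D4:**
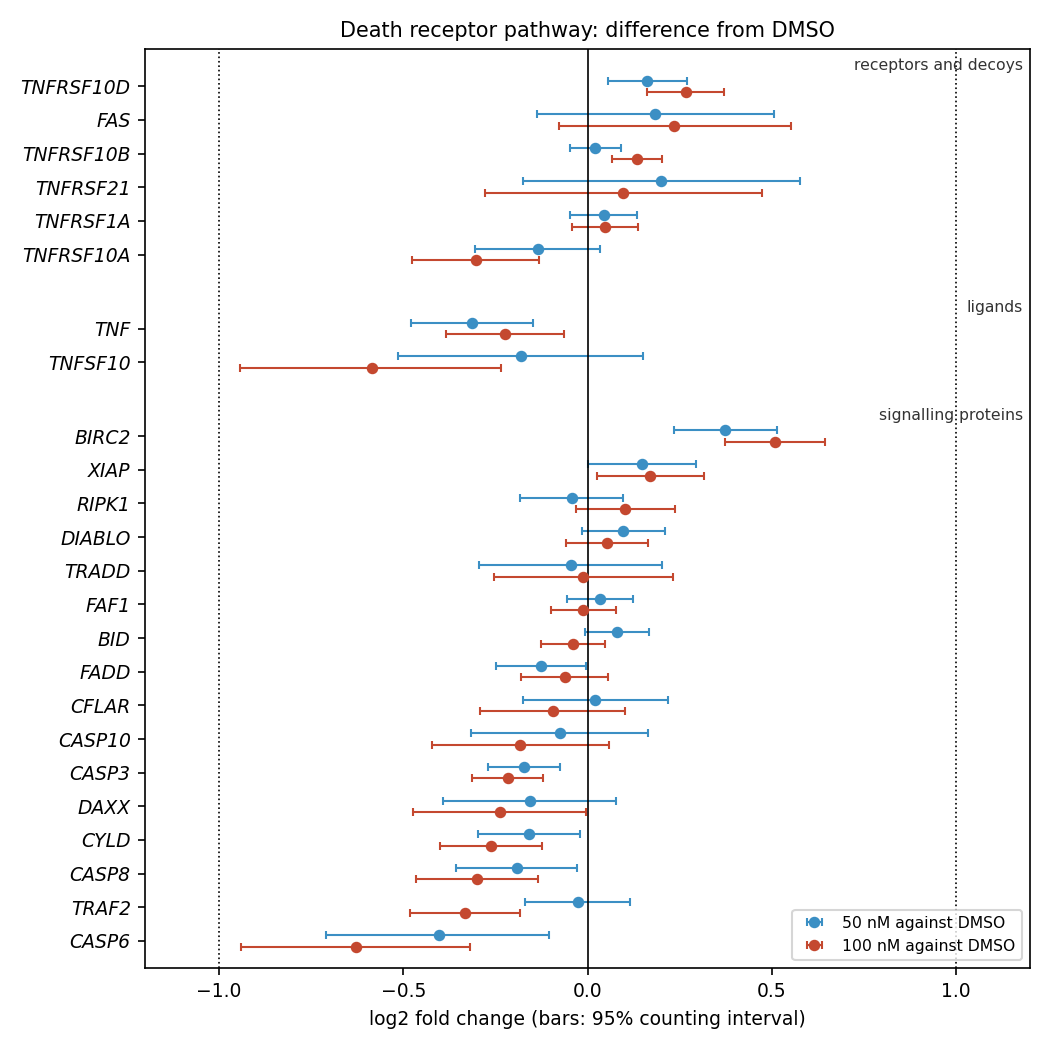
Log2 difference from DMSO at 50 nM and 100 nM for death receptors and decoys (FAS and TNFRSF10B included), ligands and those signalling proteins reported here, 1 library per condition, with 95% Clopper-Pearson intervals for counting error. TNFRSF10D and TNFRSF10B lie above 0 and TNFRSF10A below 0 at 100 nM, TNFSF10 and TNF lie below 0, and among signalling proteins BIRC2 at 0.51 and CASP6 at -0.63 mark the ends at 100 nM.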

How the data were processed

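For each of the 3 libraries the authors deposited a raw count of reads for every gene, listed by Entrez identifier and aligned to hg19 (GRCh37 in the submitters' processing notes). The strand setting and software versions of the counting are not given in the sources used here. The authors' table of EBSeq comparisons (posterior probabilities, fold changes and condition means) was not used. Of 25702 genes, 23696 had a current RefSeq symbol. Libraries were scaled by TMM in edgeR 4.0.16 (R 4.3.3). The 12879 genes that reached 10 counts in 1 library or more were compared pairwise by an exact binomial test (scipy 1.17.1) with Benjamini-Hochberg adjustment over all of them. The p was 2 times the smaller tail. This form was chosen over the minimum-likelihood form after the data were seen, with the number of genes called in an earlier analysis of these data known. Log2 differences had 0.5 counts added per library, and intervals are 95% Clopper-Pearson intervals of the count ratio. The alternatives tried were total counts, size factors from DESeq2 1.42.0, minimums of 1 and 50 counts, 5 counts added, a 1.5-fold threshold, edgeR's exact test with an assumed spread, and 99% intervals. The procedure was tested on simulated data with counting error alone and changes beyond 2-fold. That test cannot show how the procedure deals with spread between cultures or with smaller differences. The members and lists were chosen with earlier results of these data known. Named genes were all 9 members, and from each pathway list every called gene and, among genes that reached 100 counts in any library, the 2 highest and 2 lowest at 100 nM. MDM4, CDKN1A, BAX, BBC3, PMAIP1, GDF15, TNFRSF10A, CASP8, CFLAR, TNFSF10, FASLG, ATF4 and DDIT3 were named whatever their values. Some genes that this rule or the marker lists name are not reported here.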

Additional observations from a re-analysis of the deposited data

How the results depend on the processing

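The 24 log2 differences of the 8 tested members kept their direction under the 3 alternatives that can change them (both other scalings and 5 counts added), which moved them by at most 0.0075. No member was called under any alternative. For the pathway lists, 2 genes were called at 100 nM. The number was 1 with a minimum of 50 counts, 5 at 1.5-fold, 1 with an assumed coefficient of variation of 0.1, and 0 with 0.2 or 0.4. Over all tested genes it was 283 at the main setting, then 146, 864, 137, 12 and 0 in the same order. At 50 nM, where 2 list genes were also called, it was 1 with a minimum of 50 counts, 1 with an assumed coefficient of 0.1, and 0 with 0.2 or 0.4. Over all tested genes it was 123 at the main setting, then 45, 27, 0 and 0. AIFM2 has fewer than 50 counts in every library and leaves the tested genes at that minimum. The members with an interval above 0 at 50 nM numbered 2 with TMM, and 1 with DESeq2 size factors, with total counts or with 99% intervals. The gene lost was FDXR, whose lower bound was 0.00027 with TMM and -0.00054 and -0.0033 with the other scalings. At 100 nM the number was 4 in place of 5 with 99% intervals, without XPC.

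The doubled tail took the place of the minimum-likelihood binomial p, which was computed first, after seeing the data. The minimum-likelihood form called 303 genes in place of 283 at 100 nM, 137 in place of 123 at 50 nM and 80 in place of 64 between the doses. Among members and lists it called the same genes, SESN2 and AIFM2 at both doses and none between them.

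With 1 library per condition the spread between cultures is unknown. No paired analysis was possible because no group has a replicate. At this depth FAS, with 155 to 190 counts, had the widest intervals of the members, and TP53I3 was at 0.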
